A study of Mus musculus with 2 samples.

Results

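The E2F and retinoblastoma family genes described here are E2f1 to E2f7 and the pocket protein genes Rb1, Rbl1 and Rbl2, 10 of the 21779 protein-coding genes of the RefSeq GRCm38.p6 table that were used. They were taken by name, with earlier results of these data known. Each was given the Sap130 summits inside it or within 10000 bp of it. This gave 17 of the 14886 summits in the list, and all 10 genes had at least 1. Sap130 binding was mapped by ChIP-seq, in which chromatin is pulled down with an antibody and its DNA is sequenced, on E12.5 embryonic hearts of the mouse strain C57BL/6. There was 1 library from chromatin pulled down with 2 µg of rabbit anti-Sap130 antibody and 1 library of input DNA, with no antibody, from the same strain, stage and tissue. No mutant or treatment is named in the labels, and the number of hearts pooled is not given in the sources used here. As its stated question, the study asked which genes Sap130 binds in the embryonic heart.

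Each summit is the single base at which a peak of the ChIP library over the input was highest. Its score was deposited by the authors. From the layout of the list it is taken here as a p-value or q-value on the −log10 scale. The values do not show which of these it is. A higher score puts a summit higher in this list, but it is not a fold over input or an occupancy. There was 1 ChIP library, so no value below has a replicate error, no test was made, and the order of genes with close scores has no measured precision. Sequencing depth is unknown. The heart was taken whole, and strong binding in few cells cannot be told apart from weaker binding in many. Of 10 heart muscle marker genes, 5 had a summit at a start, near the 51.4% of all protein-coding genes. Of the 10, 0 had one there at or above the third quartile of all scores, against 18.3% of all protein-coding genes. A summit was at 1 of 8 hepatocyte, 1 of 8 leukocyte and 0 of 8 erythroid marker genes. Binding at a gene is not its expression, so these counts do not check the tissue label.

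E2F proteins bind the promoters of genes needed for DNA replication and cell division. In resting cells the pocket proteins hold E2Fs and bring corepressors, Sin3 with its histone deacetylases among them, to those promoters. Cyclin-dependent kinases phosphorylate the pocket proteins when a cell enters the cycle, and the E2Fs are released. E2f1, E2f2 and E2f3 are known mainly as activators and E2f4, E2f5 and E2f6 mainly as repressors, while E2f7 is an atypical member that represses without a DP partner. Heart muscle cells divide in the embryo and largely leave the cell cycle after birth. Sap130 is a subunit of the Sin3 complex.

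The start of a gene is where its promoter lies, and RefSeq start windows, 250 bases before a start and 50 after it, were found for 7 of the 10 genes (E2f1, E2f2, E2f3, E2f6, E2f7, Rbl1 and Rbl2), with 2 starts each for E2f2 and E2f3. No window was found for E2f4, E2f5 and Rb1. The windows were searched on both strands for the E2F site, written as TTTGGCGC, TTTCCCGC, TTTGCCGC or TTTCGCGC. It was found once each at E2f2, E2f3, E2f7 and Rbl1, so in 4 of the 9 windows. Of the 21263 windows of all protein-coding genes 2.85% held it, and of the 10715 with a summit within 1000 bp of the start 4.57% did. The 4 windows with a match are shown first, and that of E2f1, the gene with the highest score, after them. The listed start of E2f1 lies inside the gene, and its window does not reach the right end of the gene, so the letters at that end are not shown. Each runs 5′ to 3′ along the gene, from RefSeq GRCm38.p6, with the E2F site in capitals and all else in lower case. They are chr4:136172024-136172323 on the + strand for E2f2, chr13:29986014-29986313 on the − strand for E2f3, chr10:110745189-110745488 on the + strand for E2f7, chr2:157204485-157204784 on the − strand for Rbl1, and chr2:154569377-154569676 on the − strand for E2f1.
E2f2: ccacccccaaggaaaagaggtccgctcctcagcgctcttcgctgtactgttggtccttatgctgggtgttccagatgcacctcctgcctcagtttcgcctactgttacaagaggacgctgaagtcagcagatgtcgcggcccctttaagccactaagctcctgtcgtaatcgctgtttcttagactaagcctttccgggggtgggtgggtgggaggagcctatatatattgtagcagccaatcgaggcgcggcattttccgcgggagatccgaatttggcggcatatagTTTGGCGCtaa
E2f3: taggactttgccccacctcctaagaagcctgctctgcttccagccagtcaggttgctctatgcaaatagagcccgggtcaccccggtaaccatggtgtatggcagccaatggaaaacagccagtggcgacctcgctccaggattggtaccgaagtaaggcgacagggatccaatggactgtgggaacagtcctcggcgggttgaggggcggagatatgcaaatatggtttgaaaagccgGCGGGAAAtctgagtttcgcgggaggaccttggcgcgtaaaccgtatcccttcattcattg
E2f7: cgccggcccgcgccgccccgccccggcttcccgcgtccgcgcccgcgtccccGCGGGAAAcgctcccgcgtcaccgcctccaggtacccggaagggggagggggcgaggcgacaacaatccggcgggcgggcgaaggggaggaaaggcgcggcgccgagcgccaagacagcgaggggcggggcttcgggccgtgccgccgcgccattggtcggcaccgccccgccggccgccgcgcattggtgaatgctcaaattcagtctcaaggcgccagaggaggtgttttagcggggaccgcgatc
Rbl1: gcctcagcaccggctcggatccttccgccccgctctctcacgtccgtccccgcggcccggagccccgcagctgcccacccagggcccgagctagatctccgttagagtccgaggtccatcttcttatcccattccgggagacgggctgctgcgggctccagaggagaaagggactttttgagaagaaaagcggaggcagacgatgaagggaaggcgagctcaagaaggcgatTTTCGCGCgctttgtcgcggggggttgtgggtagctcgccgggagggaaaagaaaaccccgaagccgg
E2f1: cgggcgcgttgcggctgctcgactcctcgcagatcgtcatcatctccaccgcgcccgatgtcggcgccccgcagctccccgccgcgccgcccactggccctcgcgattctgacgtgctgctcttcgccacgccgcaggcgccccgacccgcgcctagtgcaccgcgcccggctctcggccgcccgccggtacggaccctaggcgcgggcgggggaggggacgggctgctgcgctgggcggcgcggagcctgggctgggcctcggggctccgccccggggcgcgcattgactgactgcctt

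Counted from the start, where the first base of the transcript is +1 and bases before it are negative, the site began at +40 in E2f2, -11 in E2f3, -18 in Rbl1 and -198 in E2f7. It lay on the strand of the gene in E2f2 and Rbl1 and on the other strand in E2f3 and E2f7. A match is a description of the letters and not a shown binding site. The highest Sap130 scores of these 4 genes were 177 for E2f2, 53.5 for E2f3, 44.2 for E2f7 and 27.3 for Rbl1. Genes with a match thus included the 3 lowest scores of the family and, with E2f2, one of the highest. E2f4, E2f5 and Rb1 had no window, and the window of E2f1 does not reach the right end of the gene. The site was therefore not searched for at the bound ends of these genes, and no relation of site to score can be read. Of the 5 windows shown, that of Rbl1 held a Sap130 summit, 171 bp before the start, and the other 4 held none.

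The activator genes held the highest and some of the lower scores of the family. E2f1, which encodes an activator that also takes part in apoptosis, had a single summit at position 154569711 of chromosome 2 with a score of 194. This was rank 91 of all 14886 summits. The summit lay 181 bp inside the gene (154559400 to 154569892) and 285 bp upstream of the start that the table lists, which lies inside these boundaries. E2f2 (chromosome 4, 136172274 to 136196057) also had 1 summit, at 136172490, with a score of 177 and rank 135. It was 216 bp downstream of the first listed start and 8292 bp upstream of the other one. E2f1 and E2f2 stood alike near the top of the list, and both had a single summit.

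E2f3 differed from the other activator genes in having 2 summits of middling score. E2f3 (chromosome 13, 29906575 to 29986064) is known to give the proteins E2f3a and E2f3b from separate starts. A summit of score 53.5 at 29985954 lay 109 bp downstream of the outer listed start, and another of 45.5 at 29986478 lay 415 bp upstream of it. From the inner listed start they were 1563 and 2087 bp upstream, so both lay nearer to the outer start. They ranked 4934 and 5834 of all summits.

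Among the repressor genes the scores were 177, 141 and 76.1. E2f4 encodes the main E2F of resting cells, which pairs with all the pocket proteins. The gene (chromosome 8, 105297663 to 105305370) had a summit of score 177 and rank 130 at 105297862, 199 bp inside its left end. The nearest end of the neighbouring gene Exoc3l was 896 bp from that summit, and E2f4 was the only member whose highest summit was within 1000 bp of another protein-coding gene. E2f5, which encodes a close relative of E2f4 (chromosome 3, 14578602 to 14606309), had 141 and rank 383 at 14578750, 148 bp inside its left end. The strand of E2f4 and E2f5 is not in the table used, so these ends are left and right as the chromosome is numbered.

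E2f6 encodes a repressor that does not bind pocket proteins and works with Polycomb proteins. The gene (chromosome 12, 16810909 to 16826752) had 1 summit at 16811184 with a score of 76.1, rank 2777, which was 219 bp downstream of its listed start. It was the lowest score of the 3 repressor genes, though still above the third quartile of all summits, 65.2. E2f7, the atypical member (chromosome 10, 110745439 to 110787384), had 1 summit at 110745653 with a score of 44.2 and rank 5990, 214 bp downstream of its start. Its score was between the median of all summits, 33.3, and the third quartile.

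The pocket protein genes had scores below those of E2f1, E2f2, E2f4 and E2f5. Rb1 encodes the retinoblastoma protein, a tumour suppressor that mainly holds the activator E2Fs. The gene (chromosome 14, 73192858 to 73325951) had its highest summit at 73325466, with a score of 83.2 and rank 2282, 485 bp inside its right end. Rbl2, which encodes p130, the pocket protein of resting cells, had 84.2 and rank 2213 at 91070271, 214 bp downstream of its start (chromosome 8, 91070057 to 91123844). Rb1 and Rbl2 were close in score and rank.

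Rbl1 had the lowest scores of the family at its start. The gene encodes p107, the pocket protein of dividing cells (chromosome 2, 157145893 to 157204534). A summit of score 27.3 at 157204705 lay 171 bp upstream of the start and outside the gene, and one of 15.1 at 157204005 lay 529 bp downstream. Their ranks were 8343 and 10855, and both scores were below the median of all summits. Rbl1 was the only member with its highest summit outside the gene and the only one below that median.

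**Figure D1:**
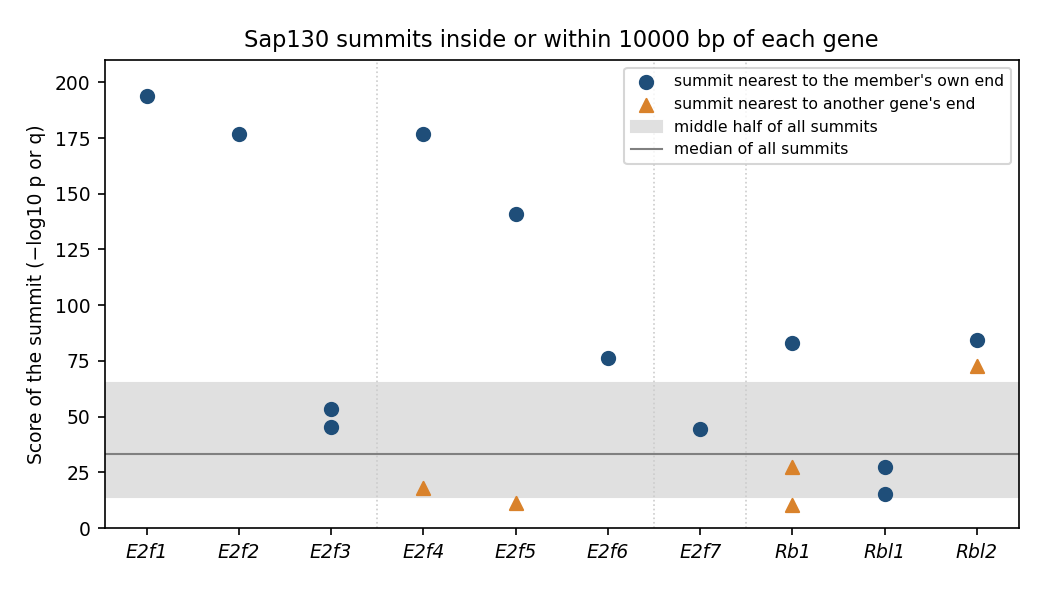
Score of every Sap130 summit inside or within 10000 bp of each gene (y axis, deposited value, taken as −log10 p or q) for the 10 genes (x axis). Circles are summits nearest to an end of the gene itself and triangles those nearest to an end of another protein-coding gene, the band spans the quartiles of all nuclear summits, 13.9 to 65.2, and the line is their median, 33.3. E2f1, E2f2, E2f4 and E2f5 stand between 141 and 194, and both circles of Rbl1 lie below the median.

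Summits at gene starts were common in the whole list, so the count of genes has to be read against that background. All 10 members had a summit inside or within 10000 bp, against 60.1% of the 21779 protein-coding genes. A long gene has a wide window. Among the 13419 genes from 7708 to 133094 bp long, the range of the members, 68.4% had one. All 10 members also had a summit within 1000 bp of a listed start, or of either end where no start is listed, against 51.4% of genes. For the 7 members with a listed start it was 7 of 7, against 52.2% of the 17492 such genes. A summit at or above the third quartile of all summits, 65.2, was in reach of 7 members, against 24.3% of genes, and at the start of the same 7, against 18.3%.

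The scores of the family were spread over most of the range of bound genes. The median of the members' highest scores was 83.7, against 54.7 for the 13080 protein-coding genes with a summit in the same reach, whose quartiles were 27.4 and 85.6. E2f1 stood at percentile 98.7 of those genes, rank 169, and E2f4 and E2f2 both stood at percentile 98.1. E2f5 stood at 94.8, Rbl2 at 74.1, Rb1 at 73.4 and E2f6 at 68.5. E2f3, E2f7 and Rbl1 were below the middle, at percentiles 48.8, 40.3 and 24.9. No subgroup was uniform, since activator genes ran from 53.5 to 194, repressor genes from 76.1 to 177 and pocket protein genes from 27.3 to 84.2.

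The highest summit of most members lay just inside the gene. For 9 of the 10 members the highest summit was inside the gene, and for all 10 it was within 500 bp of a gene end. By strand, those of E2f7 and Rbl2 were 214 bp, that of E2f2 216 bp and that of E2f6 219 bp downstream of the listed start. These 4 genes lie on 4 chromosomes and differ in score from 44.2 to 177. Over the 9128 genes with a listed start and a summit within 1000 bp of it, the highest summit was a median of 179 bp downstream (quartiles 104 and 244 bp), and 82.6% were downstream. The 50 bp from 200 to 250 bp downstream held 17.4% of those genes. The place of these 4 summits was therefore a common one in this list, and the highest summit of Rbl1 lay upstream of its start. That of E2f1 was upstream of the listed start but 181 bp inside the right end of this gene of the − strand, close to the median place.

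**Figure D2:**
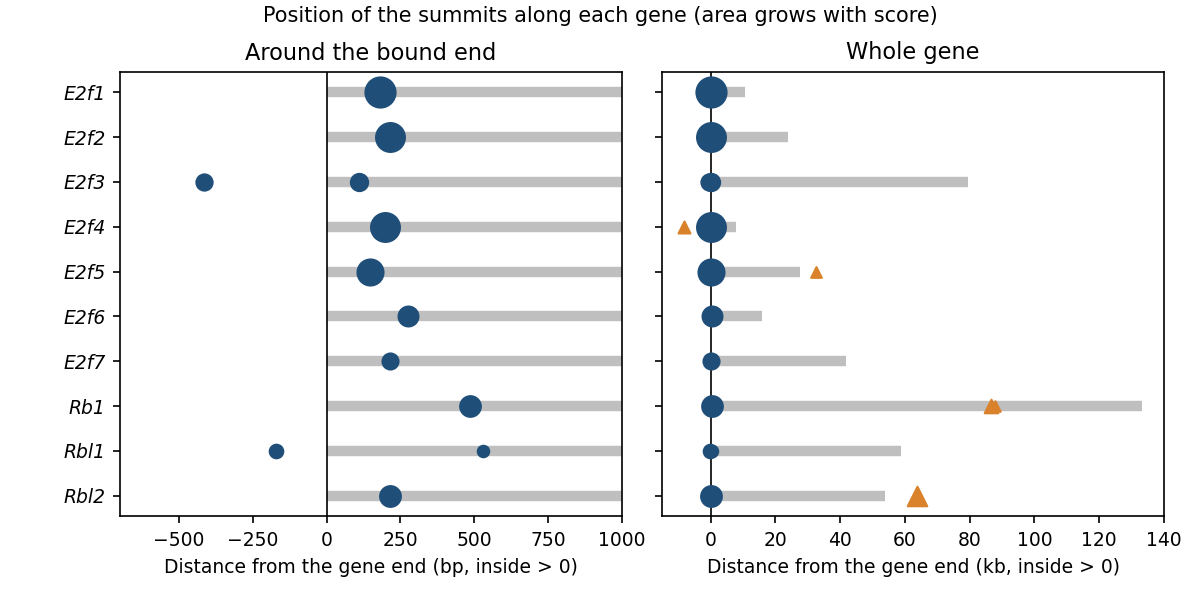
Summits along each gene, drawn from the gene end that holds the highest summit (0) into the gene (positive x, in bp on the left panel and kb on the right). Grey bars are the genes to scale, circles are summits nearest to the gene's own end, triangles are summits nearest to an end of another protein-coding gene, and the area of a marker grows with its score. The circles lie within 529 bp of the end in every gene, and the triangles lie far inside or outside.

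**Figure D3:**
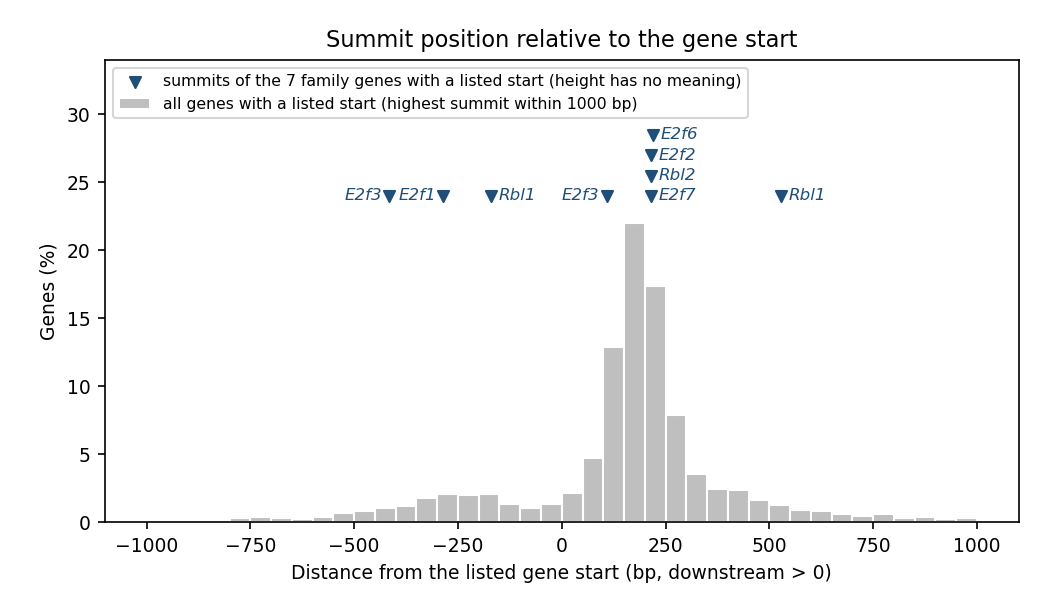
Distance of the highest summit from the listed gene start (x axis, bp, downstream positive) as a percentage of 9128 protein-coding genes in bins of 50 bp (grey bars). Triangles mark the 9 summits of the 7 family genes with a listed start, at a height that has no meaning. E2f2, E2f6, E2f7 and Rbl2 stand together at 214 to 219 bp, inside the peak of the bars.

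The other 5 of the 17 summits lay nearest to an end of another gene and inside that gene. Rb1 had 2 of them, of scores 27.5 and 10.4 at 73239245 and 73238207. Both lay within Lpar6, a gene of a lysophosphatidic acid receptor that sits inside Rb1. The summit 9980 bp beyond the right end of Rbl2, with a score of 72.7, lay inside Aktip. The one 8266 bp left of E2f4, of score 17.9, lay inside 4931428F04Rik, and the one 4827 bp right of E2f5, of 11.3, lay inside Rbis. When each summit was given to the protein-coding gene with the nearest end, 12 remained with the family, and each of the 10 genes kept its highest.

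The reach of 10000 bp decided a few of these. The Aktip summit at 9980 bp was the last one inside it. Just outside were a summit of 20.1 in Greb1, 10372 bp from E2f6, one of 16.9 in Asap3, 10517 bp from E2f2, and one of 61.8 in Samhd1, 10845 bp from Rbl1. All 3 lay in the body of the neighbouring gene.

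The start windows together had a median CpG content near that of starts with a summit. The ratio of observed to expected CpG had a median of 0.804 over the 9 member windows, against 0.810 over the 10715 windows with a summit within 1000 bp and 0.567 over all 21263. Among members it was highest at E2f7 (1.15) and E2f1 (1.08) and lowest at the inner start of E2f2 (0.314). The other windows were between 0.702 and 0.946. The inner starts of E2f2 and of E2f3 (0.797) had no summit within 1000 bp. Median GC content was 64.0% in the member windows, 63.0% in windows with a summit and 56.3% in all.

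Other words in the 9 windows were mostly about as common as in windows with a summit. The inner windows of E2f2 and E2f3, counted here, had no summit within 1000 bp of the start. GGCGG, the core of many E2F sites, was in all 9 windows of the members, in 89.0% of windows with a summit and in 60.6% of all. None of the 4 words of the E2F site searched above contains GGCGG, so this is not a count of those sites. The GC box GGGCGG, which contains that core, was in 7 of the 9, against 71.4% and 46.2%. CCAAT was in 4 of the 9 (37.5% and 38.2%), 3 copies of it in the inner window of E2f2 and 3 in the outer window of E2f3. The cell cycle element CHR, written TTTGAA or TTCGAA, was in 3 of the 9 (12% and 17.6%). These were the inner window of E2f2, the outer one of E2f3 and that of Rbl2. The E-box CACGTG was in 1 window, the inner one of E2f3 (10.9% and 7.84%). The Ets word CCGGAAGT, the CRE TGACGTCA and the YY1 word AAGATGGCG were in none. They were in 9.28%, 3.56% and 3.41% of windows with a summit and in 5.15%, 2.23% and 1.83% of all. In E2f3 the E2F site overlaps a GGCGG.

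The partners, regulators and targets of the family were bound at their starts as well. Across 7 lists with 73 distinct genes, 73 had a summit in reach and 72 had one at a start, against the 60.1% and 51.4% of all genes. The lists were chosen with earlier results of these data known, so these shares are a description only. The exception at the start was Ccna2, the cyclin A2 gene, which had a score of 157 within reach. The nearest protein-coding gene end to that summit was its own. For 14 of the 73 the summit at the start was also within 1000 bp of an end of another protein-coding gene and cannot be given to 1 of them. Scores below are those at a start, and the median over the 11187 protein-coding genes with a summit there was 49.0.

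Of the remaining E2F and the DP proteins, which pair with E2Fs to bind DNA, E2f8 had 210, Tfdp1 112 and Tfdp2 7.68. Tfdp2 also had a summit of 56.2 in reach, farther from its start, and the nearest protein-coding gene end was its own. E2f8, the closest relative of E2f7, stood above all 10 members. The MuvB core forms the DREAM repressor with E2F4 and p130 in resting cells and binds the proteins of Mybl2 and Foxm1 in dividing ones. Of 7 genes of the core and these partners, 7 had a summit at a start, with a median of 74.0. The highest were Foxm1, a mitotic activator (116), Rbbp4, a histone-binding subunit shared with Sin3 (91.9), and Lin9 (78.1). The summits of Foxm1 and Rbbp4 were shared with Rhno1 and Zbtb8os.

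Genes of the kinases that act on pocket proteins and of their inhibitors had different medians. The 8 cyclin and kinase genes had a median of 88.8, with 5 at or above the third quartile of all summits, against 18.3% of all protein-coding genes. The list was split, since Ccnd1 (30.8), Cdk6 (16.8) and Ccnd2 (15.3) were below 49.0, the median of genes with a summit at a start. In reach but farther from a start, they had summits of 41.3, 42.1 and 44.2. Each of these was nearest to the gene's own end. Ccne2, of cyclin E2, had 315, Ccnd3, of cyclin D3, 105 and Cdk4, its kinase, 102. The summit of Ccnd3 lay inside the gene, within 1000 bp of a listed start, and the nearest end of a protein-coding gene was that of Bysl. The 7 inhibitor genes had a median of 31.6, with 0 at or above that quartile, against the same 18.3%. The highest inhibitor genes were Cdkn1b, of p27 (39.9), Cdkn2d, of p19 (38.4), and Cdkn2c, of p18 (37.4). Cdkn2d also had a summit of 112 in reach, nearest to an end of Kri1. These medians describe a few genes, with no test of the difference.

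Of 30 known E2F targets of S phase, 29 had a summit at a start, with a median of 73.9. Of the 30, 16 were at or above the third quartile, against 18.3% of all protein-coding genes. Rrm2, of the ribonucleotide reductase that makes DNA precursors, had 203, Mcm7, of the replicative helicase, 201 and Ung, a uracil DNA glycosylase, 181. The summits of Mcm7 and Ung were shared with Ap4m1 and Alkbh2. All 10 genes of the Polycomb complex that holds E2f6 had a summit at a start, with a median of 68.1, among them Wdr5 (124), Ring1 (95.2) and Yaf2 (94.1). So had all 9 genes of Sin3 and deacetylase proteins that meet pocket proteins, with a median of 91.9. The highest were Arid4a, of a retinoblastoma-binding Sin3 subunit (148), Sin3a, the scaffold (128), and Kdm5a, of a retinoblastoma-binding demethylase (104), whose summit was shared with Ccdc77.

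**Figure D4:**
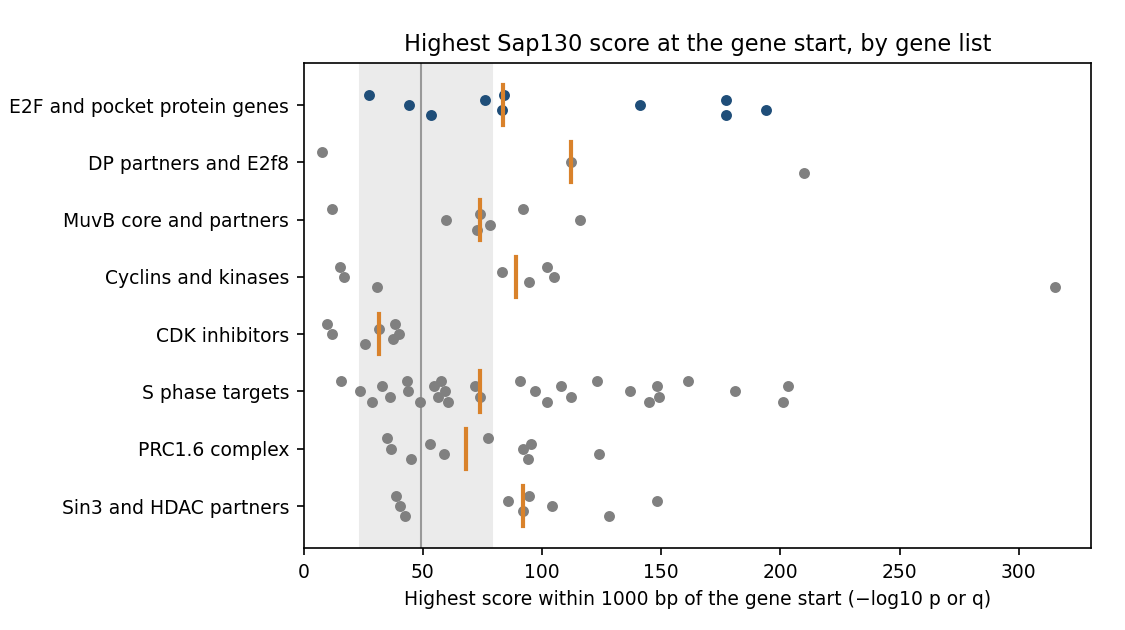
Highest Sap130 score within 1000 bp of a gene start (x axis, deposited value, taken as −log10 p or q). Genes of the family are in the top row (blue) and those of the 7 related lists below (grey), with list medians as orange bars. The band spans the quartiles of all protein-coding genes with a summit at a start, 23.8 to 78.8, and the line is their median, 49.0. The family median of 83.7 lies beside those of the cyclin and kinase genes (88.8) and the Sin3 and deacetylase genes (91.9), and the CDK inhibitor genes lie at or below 39.9.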

How the data were processed

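Per the submitters' processing notes, Bowtie 1.1.2, MACS2 2.1.0.20140616 and the mouse build GRCm38 (mm10) were used. The sources used here give neither their settings nor the threshold. The authors deposited 1 list of summits called against the input, with a score each, taken here as a −log10 p-value or q-value. This score grows with depth, which is unknown, so it only ranked and filtered summits.

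Genes came from RefSeq GRCm38.p6 without those on no named chromosome or starting in the first 3000000 bp of one other than Y. Starts, strand and sequence came from a RefSeq table that holds 80.3% of the protein-coding genes. Where it lists no start, both gene ends were used. With 1 ChIP library, counts and medians are set beside those of all protein-coding genes. The assignment of summits was tested on simulated data. The text names all members, genes sharing their summits and the 3 highest of each related list. Members and lists were chosen with earlier results of these data known. Settings tried were other reaches, score limits, merging of summits and other assignments to genes. Python 3.11.15, pandas 2.3.3, numpy 2.4.6 and matplotlib 3.10.9 were used.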

Additional observations from a re-analysis of the deposited data

How the results depend on the processing

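All 10 genes had a summit with a reach of 1000 or 5000 bp, inside the gene only, with summits given to the nearest gene body, with summits within 500 bp merged and within 500 or 2500 bp of a start. Of the 76 recomputed highest scores 75 were equal to those reported. The exception was Rbl1 inside the gene only, at 15.1. Most of this was fixed in advance. A score limit cannot change the highest score of a gene that keeps a summit, and merging keeps the highest summit. Genes left with no summit are not among the 76. With scores at or above the median of all summits, 9 genes, 11 summits and a median of 84.2 were left, Rbl1 having none. With scores at or above the third quartile there were 7 genes, 8 summits and a median of 141, without E2f3, E2f7 and Rbl1, since fewer summits enter. Of the 73 related genes 45 had such a summit in reach, against 24.3% of all protein-coding genes. Chosen after seeing the data were the nearest gene end, starts listed in the table only, both settings for the related lists, and the outermost start, which left the E2F site at 4 genes. No paired analysis was possible because there was 1 ChIP library. Depth limits the score of every summit and is unknown.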
